A study of Zea mays with 6 samples.

Results

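Of 42034 maize probes on the array, 139 were called well above background by the scanner software in both samples of pre-meiotic cells and in neither sample of whole anthers. They were chosen by these detection calls on the W23 arrays, with AM1 probes and spots flagged as outliers left out (19 flagged spots), so their signals in the 4 W23 samples are a description and carry no test. The study compared pre-meiotic cells cut by laser microdissection from anthers of the wild-type inbred line W23 with whole anthers of that line (2 samples each, titled as 700 micron long, with another label giving 701 micron for replicate 2). It also compared dissected pre-meiotic cells of a mac1 mutant with those of a mac1 heterozygote, the wild-type control of that experiment, both from anthers 1 mm long (1 sample each). Plants were field-grown, and the W23 samples of a replicate number shared an array. Per the design text, dissected cells and whole anthers came from the same stage and the same plants. Nothing in the labels says whether replicates 1 and 2 came from separate plants or extracts, so their spread may be technical. Array 1 paired pre-meiotic cells in Cy3 with whole anthers in Cy5, array 2 had the dyes the other way round, and the mac1 array held the mutant in Cy5 and the heterozygote in Cy3 with no swap. The W23 and mac1 arrays lay on different slides scanned at different times, so slide, anther length and genetic background cannot be told apart.

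In the young anther lobe, archesporial cells in the centre become the pre-meiotic germ cells, and layers of somatic cells form around them. mac1 (multiple archesporial cells1) limits how many cells take the germ-line fate, and AM1 (ameiotic1) is needed to enter meiosis. A whole anther contains its pre-meiotic cells, so a transcript of those cells is present in the whole-anther RNA too, diluted by that of the somatic layers, and in such bulk samples fewer cells of a type and less RNA per cell cannot be told apart. A detection call in the dissected cells alone therefore describes where a signal passed a threshold.

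No member could be given a gene name. Of the 139 members, 56 carry TC numbers, which stand for clusters of expressed sequence tags (ESTs), 79 carry a single sequence accession, 3 a MAGI4 genomic contig and 1 an NP number. None of these names occurs in the RefSeq table of B73 (49888 genes), which matched only 4 probes of the array, so no role is stated for any member below. TC numbers made up 40.3% of the members, 41.8% of the 3590 probes called in no W23 sample, 61.1% of the 1504 called in whole anthers only and 72.9% of the 27875 called in all 4 W23 samples. In this respect the members resembled the undetected probes. Only gene lists with names on the array could be counted: 0 of 17 probes of meiosis and cohesin genes (AM1, ZmRAD21, ZmSGO1, ZmSMC1 and ZmSMC3) and 0 of 4 probes named after the MuDR transposon were members. No probe carried a name from the lists searched for anther lobe development and male sterility, low oxygen and redox, somatic anther layers or green tissue. The brightest AM1 probe, the one check of the labelled cell type, had background-subtracted signals of 39.2 and 75.8 scanner units in pre-meiotic cells against 10.4 and 7.31 in whole anthers, with 80.3 in the heterozygote and 45.1 in the mutant. A second AM1 probe also was higher in pre-meiotic cells (56.4 and 55.9 units against 11.0 and 8.98). The remaining probe had 25.6 and 28.1 units against 30.1 and 19.4. Whole-anther channels were brighter in general: the median of all probes was 37.6 and 31.1 units there, against 8.97 and 16.8 in pre-meiotic cells. The remaining probe lay above that median in both pre-meiotic samples and below it in both whole-anther samples. Set against that median, its order was therefore that of the other AM1 probes. Its difference between the tissues was smaller than theirs, since its pre-meiotic signals were the lowest and its whole-anther signals the highest of the AM1 probes in both replicates. All 3 were well above background in all 6 samples.

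The members were dim. A probe was called well above background from a background-subtracted signal of 1.65 and 1.74 scanner units in pre-meiotic cells replicates 1 and 2, 1.82 and 1.81 in whole anthers, 1.47 in the heterozygote and 1.98 in the mutant. The members' median was 2.76 units in pre-meiotic cells replicate 1, with a range of 1.66 to 7.84, and 2.65 units in replicate 2, with a range of 1.74 to 10.03. The median of all probes was 8.97 and 16.8 units in the same samples, so the typical member lay at percentiles 32.2 and 26.0 of the array. In 138 of 139 members both pre-meiotic signals were under 10 units. Only 17 members reached 2 times the threshold in both samples, and the other 122 did not.

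**Figure D1:**
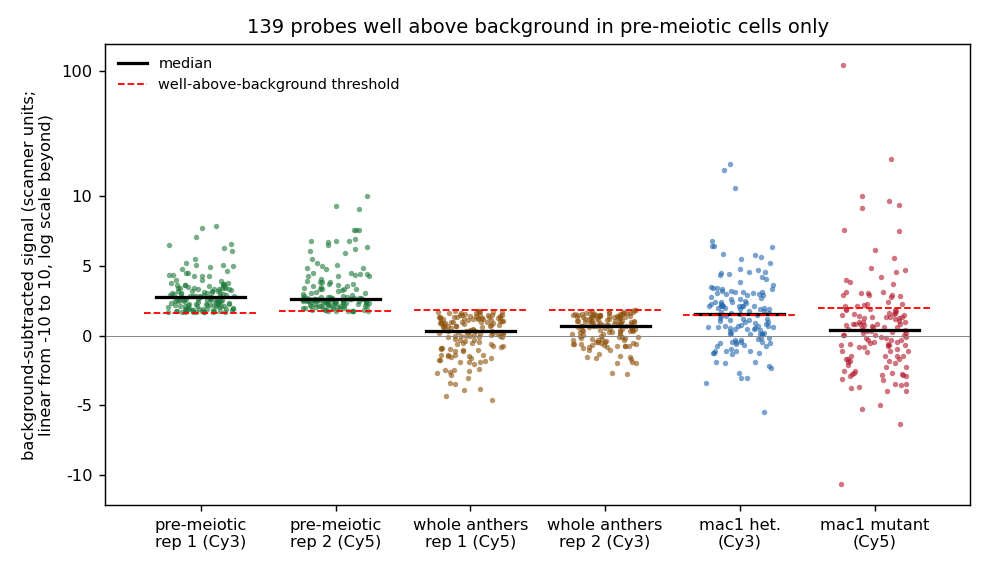
Background-subtracted signal (scanner units, linear from -10 to 10 and logarithmic beyond) of the 139 members in each of the 6 samples, 1 point per probe, with the median as a black bar and the detection threshold of that sample as a dashed red line. The members lie just over the threshold in both pre-meiotic samples and under it in both whole-anther samples, as the rule requires, while on the mac1 array they lie on both sides of it.

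In whole anthers the members' signals were under the threshold, with medians above those of the negative controls. Their medians were 0.321 and 0.709 units in replicates 1 and 2, against -2.30 and -2.11 units for the 153 negative-control spots. In replicate 1, 52 members, and in replicate 2, 78 members, were brighter than 95% of the negative controls. Whole-anther signals were above 0 on both arrays in 58 members, on 1 array in 63 and on neither in 18. Negative controls were themselves called well above background in 1 to 4 of 153 spots per sample.

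The members just inside the rule differed little from probes just outside it. TC312826 was the nearest to the threshold, with pre-meiotic signals of 1.89 and 1.74 units, and CD651784 had 1.66 and 2.62. TC302423, with 3.28 and 1.73 units, missed the rule by replicate 2 alone. On the whole-anther side, TC314261 was kept with 1.34 and 1.78 units, and CV985293 was left out with 1.84 and -0.415. In all, 1100 probes missed the rule in 1 pre-meiotic sample only and 634 in 1 whole-anther sample only.

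Membership on 1 array seldom recurred on the other. Array 1 alone gave 1495 probes called in pre-meiotic cells and not in whole anthers, and array 2 alone gave 1542. The 139 members are 9.30% of the first list and 9.01% of the second, and 0.331% of the 42012 probes that the rule could take. Of the 1495 probes from array 1, array 2 called 329 in both tissues, 613 in neither and 414 in whole anthers only. Of the 1542 from array 2, array 1 called 305 in both, 487 in neither and 611 in whole anthers only. By comparison, the 1504 probes called in whole anthers only on both arrays are 25.6% of the 5873 such probes of array 1 and 42.65% of the 3526 of array 2. Pre-meiotic-only calls thus recurred less often than whole-anther-only calls as shares of their lists, a difference that was not tested.

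The brightest members lay over their whole-anther signals by a few scanner units, and by less in some replicates. DT642487 had 2.39 against 1.52 units in replicate 2. The order of the members differed between replicates. On the normalized log2 scale the 2 pre-meiotic samples had a Pearson correlation of 0.07 over the members, against 0.98 over all probes. The members cover a narrow range of dim signals and all probes a wide one, so the 2 values are not alike. BQ486665 ranked highest in pre-meiotic cells, with 7.69 and 9.31 units there, 0.908 and 0.747 in whole anthers, 18.0 in the heterozygote and 7.46 in the mutant. Its signals passed the threshold in all 4 samples of dissected cells. TC305142 had 7.03 and 6.81 units in pre-meiotic cells, -1.01 and 1.42 in whole anthers, 2.77 in the heterozygote and 0.418 in the mutant, so it passed in 3 of the 4. TC292401 had 4.46 and 6.76 units, -0.422 and -0.560 in whole anthers, 2.26 in the heterozygote and -1.13 in the mutant. It is 1 of the 18 members at or below 0 in both whole-anther samples. AI920614 had 3.68 and 6.90 units, 1.32 and 1.44 in whole anthers, 6.44 in the heterozygote and 1.89 in the mutant, just short of the mutant threshold. TC314952 had 5.49 and 4.97 units, 0.755 and -0.223 in whole anthers, 4.22 in the heterozygote and 10.02 in the mutant. The mutant was the highest of the 6 samples for that probe. DT642487 ranked after DR801503 by normalized log2 intensity but had only 3.60 and 2.39 units, -3.02 and 1.52 in whole anthers, and 0.6385 and -0.782 in the heterozygote and mutant. DR801503, CD952474, DT939121 and CV985283 complete the 10 highest.

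Fold differences between the tissues were small on the normalized scale, where an offset of 50 units added before the logarithm outweighs signals of this size. The members' log2 ratio of pre-meiotic cells over whole anthers had a median of 0.14 on array 1 and 0.08 on array 2, and the mean of both arrays ranged from -0.03 to 0.28. All members were under 2-fold, while 3.14% of the 33643 probes called in a whole group were at least 2-fold higher in pre-meiotic cells. The whole-anther samples were not well above background, so a lower bound on each fold was computed. It equalled the plain ratio for the members, so the folds given here are estimates and not bounds. The highest were 1.21-fold for TC292401, 1.20-fold for BQ486665 and 1.17-fold for AI920614, and the median was 1.08-fold. In 136 of the 139 members the fold was over 1. Processed signals from the scanner software, which have no such offset, gave a median log2 ratio of 0.995, with 68 of 139 members at 1 or more. The values of BQ486665, TC305142 and TC299186 were then 2.76, 2.43 and 2.44. The rule used these values, and nothing is read from them.

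Other probes for the same sequence were mostly detected in whole anthers, as were most probes of the array. Leaving MAGI4 names aside, 15 members share their sequence name with other probes of the array, 16 in number, and 14 of these 16 were well above background in both whole-anther samples, for 13 of the 15 names. Of the 16, 12 were detected in all 4 W23 samples. Over all probes, 84.3% and 82.45% were well above background in whole anthers replicates 1 and 2. All 4 W23 samples called 66.35% of the probes that the rule could take. The counts for the 16 are therefore not particular to these names. For TC282672, the member had 2.58 and 2.15 units in pre-meiotic cells and -0.0699 and 0.868 in whole anthers, while the other probe had 599.6 and 961.5 units in pre-meiotic cells and 3434 and 3031 in whole anthers. For CD982788, the member had 2.61 and 2.34 units in pre-meiotic cells, while the other probe had 30.1 and 59.7 there and 414 and 406.8 in whole anthers. Each of these other probes was lower in pre-meiotic cells than in whole anthers (log2 ratios -1.04 and -1.37), the opposite order to the member's. These were the lowest ratios of the 16.

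The other probe of TC314952 had 28.7 and 105.1 units in pre-meiotic cells and 91.1 and 119.8 in whole anthers. Its normalized log2 ratio was 0.27, in the same direction as the member's. TC305142 has another 2 probes, both called in both whole-anther samples, where the dimmer one had 4.32 and 2.04 units. The log2 ratios of the 16 other probes ran from -1.37 to 0.87, with 13 above 0. Only the second probe of TC308558 was called in neither whole-anther sample, and it missed pre-meiotic replicate 2 as well. The name MAGI4_38589 covers 23 probes, 2 of them members. Levels of different probes cannot be set against each other as amounts of RNA, since each probe binds with its own strength.

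**Figure D2:**
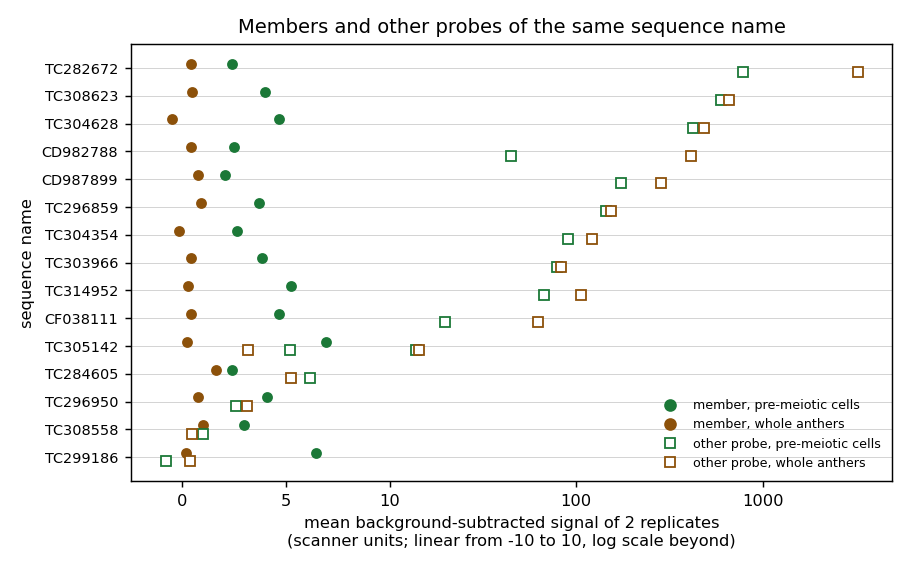
Mean background-subtracted signal of both replicates (scanner units, linear from -10 to 10 and logarithmic beyond) for the 15 members that share a sequence name with other probes (filled circles) and for those 16 other probes (open squares), in pre-meiotic cells (green) and whole anthers (brown). The member probes all lie under 10 units, and most of the other probes lie far to the right of them in both tissues.

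The mac1 array took no part in choosing the members. Of 139 members, 70 (50.4%) were well above background in heterozygote cells, where 72.9% of all probes were. In mutant cells 32 members (23.02%) were called, where 64.4% of all probes were. Both samples called 23 members, the heterozygote alone 47, the mutant alone 9, and neither called 60. With 1 sample a group there is no test of these shares, and the number of arrays limits their precision.

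Set by their W23 pattern, the members were called on the mac1 array more often than probes seen in whole anthers only or in no W23 sample, and less often than probes seen in all 4 W23 samples. In heterozygote cells the shares were 29.1% for probes called in whole anthers only, 13.9% for probes called in no W23 sample and 94.2% for those called in all 4. In mutant cells they were 16.3%, 7.495% and 87.3% in the same order. The median pre-meiotic signals behind these groups were -0.270 and -0.0143 units for whole anthers only, -0.978 and -1.01 for none, and 30.4 and 54.2 for all 4. The other 8901 probes, called in some other mix of W23 samples, had pre-meiotic medians of 0.839 and 1.88 units, below the members', and were called in 37.7% in the heterozygote and 24.2% in the mutant, so in the mutant their share was not below that of the members.

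**Figure D3:**
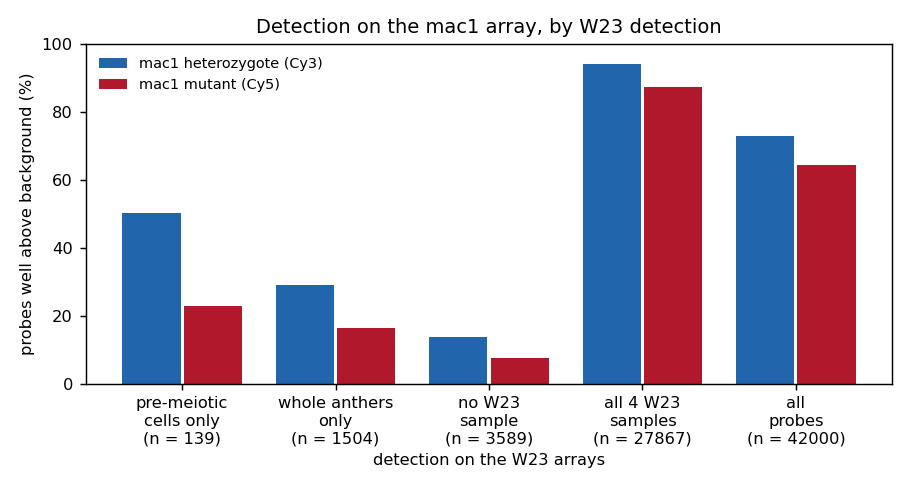
Percent of probes well above background in mac1 heterozygote cells (blue) and mac1 mutant cells (red), grouped by where the probes were detected on the W23 arrays, with the number of probes under each pair of bars. The members stand at 50.4% and 23.02%, between probes called in whole anthers only and probes called in all 4 W23 samples. Each bar is 1 sample, so there are no error bars.

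Detection in the heterozygote depended on which W23 array chose the probes. Probes called in pre-meiotic cells only on array 1, where those cells carried Cy3 as the heterozygote did, were called in the heterozygote in 48.2% of 1495 cases. Those of array 2, where the cells carried Cy5, were called in 28.15% of 1542 cases. In the mutant, labelled with Cy5, the shares were 21.0% and 20.6%. The dye moved with the share in the heterozygote but not in the mutant, and its part in the members' 50.4% was not tested.

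Detection on the mac1 array was also counted by W23 pre-meiotic level. Of the 69 members brighter by mean pre-meiotic log2 intensity, 39 (56.5%) were called in the heterozygote and 23 (33.3%) in the mutant, against 31 (44.3%) and 9 (12.9%) of the 70 dimmer ones. The split was not tested. Background-subtracted signals, which rank the members differently, were also compared. Members called in the heterozygote had a median of 2.71 units in pre-meiotic replicate 1 and 2.88 in replicate 2. Members not called there had 2.76 and 2.56, so on this measure those called were brighter in replicate 2 only. Of the 17 members at least 2 times over the threshold in both pre-meiotic samples, 12 (70.6%) were called in the heterozygote, 10 (58.8%) in the mutant and 2 in neither. These 2 were TC294705, with 5.04 and 4.26 units in W23 pre-meiotic cells but -0.446 and -1.45 in heterozygote and mutant, and DR813092, with 3.43 and 3.66 against 0.145 and -3.96. Of the 18 members with whole-anther signals at or below 0 on both arrays, 8 were called in the heterozygote and 1 in the mutant.

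The 47 members called in the heterozygote alone differed by at most 1.15-fold between the mac1 samples with the offset of 50 units. With processed signals 11 of them were at least 2-fold higher in the heterozygote. The median log2 ratio of mutant over heterozygote was then -0.64 over the 47 members. Among the 79 members called in at least 1 mac1 sample they make up 59.5%, where 16.1% of all such probes were heterozygote-only, and the 9 mutant-only members make up 11.4%, against 5.07%. The same split was 59.4% and 24.9% among probes called in no W23 sample, and 55.9% and 21.3% among those called in whole anthers only. A high heterozygote-only share was therefore shared by other dim probes, while the mutant-only share of the members was the lower of the 3. TC304354 had the largest difference with the offset, 1.15-fold higher in the heterozygote, with 2.94 units there and 0.844 in the mutant. TC304107 followed at 1.14-fold with 2.42 and 0.829 units. On the scale with the offset, 32 of the 47 were higher in the heterozygote, with a median of 1.06-fold. The rest were higher in the mutant on that scale, although not called there, as was DN219122 (log2 ratio 0.13). The mutant channel had the higher threshold and the lower median over all probes (5.74 units against 7.25), and the dyes were not swapped, so genotype, dye and sample cannot be told apart.

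Of the 9 members called in the mutant alone, CV985283 differed from the other 8 in size. It had 6.46 and 5.04 units in W23 pre-meiotic cells, 1.27 and 1.18 in whole anthers, -1.08 in the heterozygote and 110.7 in the mutant. The mutant over heterozygote log2 ratio was 1.53, or 2.89-fold, and 6.47 with processed signals. It was the 1 member at least 2-fold higher in the mutant, or 1.27% of the 79 measured, against 0.782% of all measured probes. Its spot lies in column 84 of 85 in an area of raised Cy5 background on that array: the local background was 61 units, above that of 99.9% of spots, where the median was 38. Of the 6 spots around it, 5 had mutant signals over 50 units, up to 431.1, and 3 were at least 2-fold higher in the mutant themselves. The spot next to it with 431.1 units in the mutant had 25.01 in the heterozygote. Without CV985283, 0 members were at least 2-fold higher in the mutant. The part of the local background in this value was not tested.

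The other mutant-only members were near the threshold of 1.98 units. TC303517 had 0.130 units in the heterozygote and 4.19 in the mutant (1.20-fold with the offset), TC290556 had 0.129 and 4.01, and TC289113 had -3.03 and 2.89. TC283826 stood at 2.125 units in the mutant. CF038111, with 3.03 units, was also among the 17 members far over the threshold in W23.

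The 23 members called in both mac1 samples were all under 2-fold on the scale with the offset of 50 units, while with processed signals 3 of them were at least 2-fold higher in the mutant and 2 at least 2-fold lower. With the offset their log2 ratios ran from -0.09 to 0.23, with 16 above 0 and 7 below and a median of 0.04, against a median of -0.0014 for all probes called in both. TC299186 had the highest of these ratios, 0.23, with 3.14 units in the heterozygote and 9.34 in the mutant. In W23 it had 6.07 and 6.795 units in pre-meiotic cells and 0.0513 and 0.284 in whole anthers. CK370134 was the brightest member in the mutant after CV985283, at 19.9 units, with 16.1 in the heterozygote but only 2.88 and 5.90 in W23 pre-meiotic cells. BQ529136 had 2.47 and 4.68 units (log2 ratio 0.17).

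**Figure D4:**
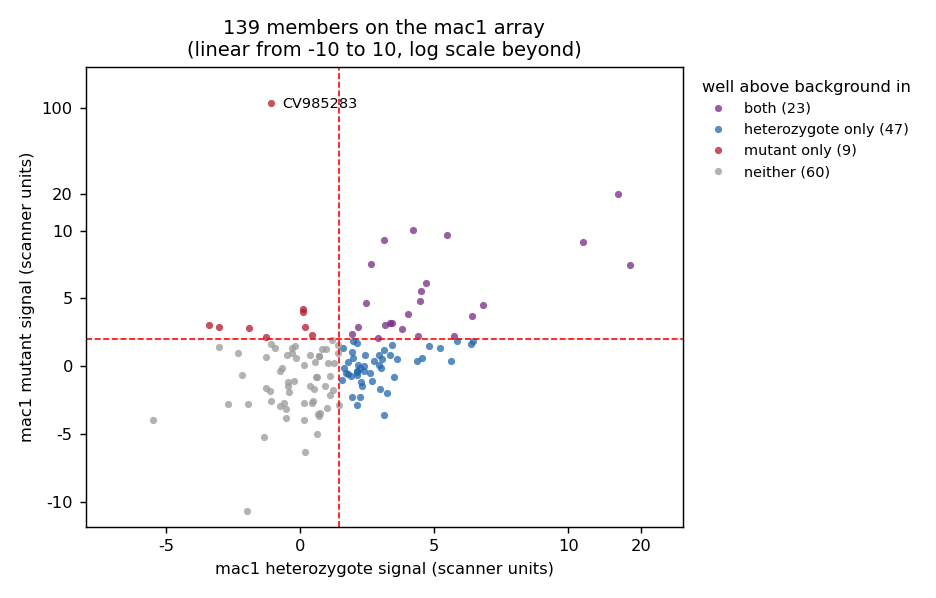
Background-subtracted signal of each of the 139 members in mac1 heterozygote (horizontal axis) and mac1 mutant cells (vertical axis), in scanner units, linear from -10 to 10 and logarithmic beyond, with both detection thresholds as dashed red lines and colours for the detection pattern. Most members lie within a few units of the thresholds, 23 pass both, and CV985283 lies apart at 110.7 units in the mutant.

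Over the 79 members measured on the mac1 array the median log2 ratio of mutant over heterozygote was -0.0080, with 40 below 0 and 39 above, against -0.0096 over all 32245 measured probes. At least 2-fold lower in the mutant were 0 of 79, where 0.549% of all measured probes were. With processed signals 6 members were at least 2-fold higher and 13 lower, or 7.59% and 16.5%, beside 7.49% and 14.8% of all measured probes at that setting, and the medians were -0.38 and -0.213. With offset 0, 4 members were higher and 6 lower, or 5.06% and 7.59%, beside 4.97% and 6.05% of all measured probes. At these 2 settings the members' counts lay near those of the array as a whole. The main scale, with its larger offset, cannot be read this way for the lower count. There the highest heterozygote log2 value of any member was 6.609 (CK370134) and the lowest mutant value 5.715 (TC285435). No member could therefore be 2-fold lower, whatever its RNA level. The member 2-fold higher there was CV985283, in an area of raised background.

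Of the 60 members called in neither mac1 sample, the brightest in W23 were DT642487, DR797958, TC312014, BM074546 and CO465027. DR797958 had 3.07 and 3.84 units in W23 pre-meiotic cells and 1.25 and 0.200 in heterozygote and mutant. TC312014 had 3.97 and 2.65 units against -1.35 and -5.24. Their whole-anther signals differed too, at 1.68 and 1.59 units for DR797958 and -1.92 and -0.178 for TC312014.

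On the normalized log2 scale with the offset, the heterozygote, as the other control sample of dissected cells, did not depart from W23 pre-meiotic cells in 1 direction. It lay below both W23 pre-meiotic samples in 48 members, between them in 39 and above both in 52, with a median difference from their mean of 0.0023. With processed signals the median difference was 0.84, higher in the heterozygote, so the absence of a shift depends on the setting. With the offset, the mutant lay below both in 54, between them in 27 and above both in 58. The median SD between the 2 W23 pre-meiotic samples was 0.0438 for a member. Against whole anthers, the heterozygote was higher by a median of 0.098, against 0.108 for W23 pre-meiotic cells. The rule had chosen the pre-meiotic values for passing the threshold and the whole-anther values for being under it. Neither median is therefore independent of the rule. For probes called in whole anthers only, the median difference of the heterozygote from whole anthers was -0.102.

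The members were spread over the slide, with 59.0% of them in the higher-numbered rows of the 532 (50.1% of all probes). At most 3 members in any sample lay above the 99th percentile of the local background. No member was flagged as an outlier on the mac1 array.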

How the data were processed

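RNA of whole anthers was extracted with TRIzol and that of dissected cells on PicoPure columns, and all was linearly amplified, per the labels' protocols, so preparation and tissue cannot be told apart. The deposited scanner files hold intensity values of Agilent Feature Extraction 10.5.1.1, per the file headers: median spot and background signals, background-subtracted signals, and processed signals that were also dye-normalized. Detection calls are the scanner software's 0 or 1 flags in the deposited files, and in each sample they matched a fixed limit on the background-subtracted signal. Versions 3.8.3 of limma and 2.13 of R are listed per the submitters' processing notes. The authors' deposited value table holds intensity on a linear scale, with 10005 to 21473 values per column at 0. Its column medians were 57.4 and 59.5 for pre-meiotic cells, 62.8 and 63.6 for whole anthers, 46.0 for the heterozygote and 43.8 for the mutant. Its scaling between columns stays unknown.

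Here limma 3.58.1 under R 4.3.3 gave log2 ratios from the median signals (normexp, offset 50, loess within arrays, control and outlier spots at weight 0). Channel values were scaled between arrays with Aquantile. A lower bound on a fold was to set the brighter group against, per array, the higher of the dim probe's value and the lowest value well above background. For the members that lowest value did not raise the dim value, so each bound equalled the plain ratio. No model was fitted across probes, since the rule used the W23 contrast and the mac1 groups have 1 sample each.

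The members and gene lists were chosen with earlier results of these data known. Named are the 10 members highest in pre-meiotic cells, the 10 highest bounds, the 10 largest mac1 ratios, up to 5 of each mac1 pattern, 3 on each side of the threshold, and other probes of a member's name. Not all of these are printed. TC294705, DR813092 and CF038111 were added after their values were seen. The files and the reference table gave no sequences, descriptions or gene names for the members.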

Additional observations from a re-analysis of the deposited data

How the results depend on the processing

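The number of probes detected in pre-meiotic cells only was 138 and 139 with the scanner's other detection call, which differs in few spots, and 114 with 1 common threshold of 2 units, an alternative chosen after seeing the data. It was 88 for probes above 0 in pre-meiotic cells only in the authors' deposited value table, of which 17 are members and 71 are not. Leaving out a replicate gave 1495 to 1542 probes, of which 434 to 720 were detected in the heterozygote (28.15% to 48.2%) and 314 to 317 in the mutant (20.6% to 21.0%). Among the 17 members at least 2 times over the threshold, a set also chosen after seeing the data, 12 (70.59%) and 10 (58.82%) were. The median log2 ratio of pre-meiotic cells over whole anthers, 0.11, was 0.32 with median centring, 0.66 with offset 0, 0.995 with processed signals and 0.08 to 0.14 with a replicate left out. The median mutant over heterozygote ratio, -0.0080, turned to 0.0355 with median centring, 0.0478 with the mean red over green ratio of the W23 arrays subtracted and 0.0108 over all members, and stood at -0.38 with processed signals, so its sign depends on the setting. Members higher in the mutant by 2-fold or more numbered 1, but 4 with offset 0, 6 with processed signals and 0 without CV985283 (also left out after seeing the data), and members lower by as much 0, but 6 with offset 0 and 13 with processed signals. The median difference of the heterozygote from W23 pre-meiotic cells, 0.0023, was 0.84 with processed signals and -0.0169 to 0.0294 with a replicate left out. Apart from the offset, whose construction draws ratios of dim probes towards 0, the cause of these shifts was not tested. No paired analysis was possible because no result comes from a test, and ratios within an array already set paired samples against each other. Slide as a block could not be fitted, since slide and experiment coincide.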
